A study of Mus musculus with 8 samples.

Results

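The miRNAs described are mmu-miR-203, mmu-miR-205 and the 3 miRNAs of the miR-183 cluster, mmu-miR-96, mmu-miR-182 and mmu-miR-183, which are known from epithelial and sensory epithelial cells. They were taken by name from the array design, 5 of its 611 mouse miRNAs, and they were chosen by their names with the UUO differences of these arrays already known, with no threshold on a value. Those differences are therefore given as a description and carry no test. The arrays measured total RNA of whole kidneys of ICR mice, an outbred strain. In 4 UUO kidneys the ureter had been ligated for 7 days (unilateral ureteral obstruction). The 4 contralateral kidneys had no ureteral obstruction. They came from mice with the other ureter ligated, so no group is an unoperated or sham-operated kidney. Sex and age of the mice are not given in the sources used here. Nothing in the labels says which kidneys shared a mouse or that each came from a separate one, so the p-values below measure the spread between these 8 samples.

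A miRNA guides the Argonaute protein to messenger RNAs that pair with its seed, the bases near its 5′ end, and lowers their translation or stability. miR-203 is abundant in skin, where it restrains the progenitor factor p63 as keratinocytes differentiate. miR-205 is a miRNA of stratified epithelia and, with the miR-200 family, represses Zeb1 and Zeb2, factors that switch off E-cadherin. The miR-183 cluster is made from one primary transcript and is best known from hair cells of the inner ear, photoreceptors and olfactory neurons. Its member miR-96 is known for seed mutations that cause hearing loss in mice and humans.

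The mature sequences show which of these miRNAs share a seed and which do not. They are those of RefSeq on GRCm38.p6, found for 5 of 5, and are written 5′ to 3′ with the seed, bases 2 to 8, in capitals. The array uses names without an arm, and each was read as the guide arm of its precursor by miRNA naming convention.
mmu-miR-203-3p: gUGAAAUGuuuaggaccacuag
mmu-miR-205-5p: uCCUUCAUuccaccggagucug
mmu-miR-96-5p: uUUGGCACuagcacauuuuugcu
mmu-miR-182-5p: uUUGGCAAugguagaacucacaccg
mmu-miR-183-5p: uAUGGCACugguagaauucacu

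Within the miR-183 cluster the seeds were near copies of each other. Counted from 1 at the 5′ end, miR-96 and miR-182 differed at 1 seed base, C8A, and miR-96 and miR-183 at 1 seed base, U2A. miR-182 and miR-183 differed at 2 seed bases, U2A and A8C. The seed of miR-96 occurred in 2 of the 1738 mature miRNAs of the table, the other being miR-1271-5p, whereas the seeds of miR-203, miR-205, miR-182 and miR-183 each occurred in 1. The seeds of miR-203 and miR-205 differed from each other at 7 of their 7 bases, so the miRNAs share neither a seed nor a locus.

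The miR-183 cluster lies on the minus strand of chromosome 6, inside the long noncoding gene Mirc35hg. In GRCm38.p6 mature miR-183 is at chr6:30169711-30169732, miR-96 at chr6:30169506-30169528 and miR-182 at chr6:30165962-30165986. The hairpins Mir183 and Mir96 are 116 bases apart, and Mir96 and Mir182 are 3453 bases apart, so the whole cluster spans 3820 bases. miR-205 is at chr1:193507503-193507524 on the minus strand, inside its host gene Mir205hg. miR-203 is at chr12:112130927-112130948 on the plus strand, inside the predicted gene Gm51289 and between the genes Aspg and Kif26a.

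All 8 arrays lay on 1 slide and were read in 1 scan. Before scaling, UUO arrays 1, 3 and 4 were brighter than all contralateral arrays and UUO array 2 was not. Between 243 and 310 miRNAs per array were above background in UUO kidneys, against 228 to 240 in contralateral kidneys. They averaged 272.75 ± 31.7 per UUO array and 232.5 ± 5.74 per contralateral array (SD, n = 4 each; p = 0.0286, exact two-sided permutation test, the smallest p that 4 arrays against 4 can give). UUO kidney 2 stood apart from its group. Across the 222 miRNAs tested, which are not independent replicates, its log2 values correlated on average at r = 0.887 with the remaining UUO arrays and at r = 0.964 with the contralateral ones. Results are therefore also given without it. It was singled out by the same values that are then tested, so more calls without it are no separate support. The tubule miRNAs miR-192, miR-194, miR-204, miR-10a and miR-10b were above background on all 8 arrays. miR-215, from the same list, was above background on 0.

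Levels are given as a percentage of the 75th percentile of probe signal on the same array. They compare arrays for 1 miRNA and do not compare miRNAs, since probes bind with different strength. Differences are on the log2 scale, UUO minus contralateral, with the standard error (SE) of a limma fit over all miRNAs tested. A miRNA was tested when it was above background on all 4 arrays of a group, which 222 miRNAs were, among them 4 of the 5 described. In whole kidney RNA, fewer cells of a type and less of a miRNA per cell cannot be told apart.

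mmu-miR-203 was lower in every UUO kidney than in every contralateral kidney. Its level was 16.1%, 22.4%, 19.6% and 15.6% of the array's 75th percentile in UUO kidneys 1 to 4, against 35.7%, 31.5%, 32.6% and 39.5% in contralateral kidneys 1 to 4. The highest UUO kidney, number 2, was thus still below the lowest contralateral kidney, also number 2. Such a complete separation with UUO lower was seen for 21.2% of the 222 miRNAs tested, 47 in number.

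The geometric mean of miR-203 was 18.2% in UUO kidneys and 34.7% in contralateral kidneys, a 1.90-fold lower level. The log2 difference was -0.93 with an SE of 0.16, against a median of -0.14 over all 222 miRNAs. The SD of the log2 values was 0.25 in UUO kidneys and 0.15 in contralateral kidneys (n = 4 each). Both spreads were small beside the difference. Without UUO kidney 2 the difference was -1.03 with an SE of 0.13.

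Both probes of miR-203 were above background on all 8 arrays and showed the same separation. Their log2 differences were -0.87 for the brighter and -1.11 for the dimmer probe. Each array holds 9 or 10 usable copies of each probe, and the median coefficient of variation among copies was 9.60% for the brighter and 13.0% for the dimmer probe. Within the slide rows, each of which holds 2 arrays per group, the difference was -0.82 in row 1 and -1.04 in row 2.

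The lower level of miR-203 was one of scaled signal. Its unscaled signal, summed over both probes, was 111, 115, 275 and 249 in UUO kidneys, against 183, 131, 180 and 230 in contralateral kidneys, and these groups overlapped. Without scaling its log2 difference was -0.05, while the median of all 222 miRNAs moved to 0.74, against -0.14 with scaling. Relative to that median miR-203 stood at -0.79, a value that one factor per array cannot change, and at -0.45 after the normexp background correction.

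**Figure D1:**
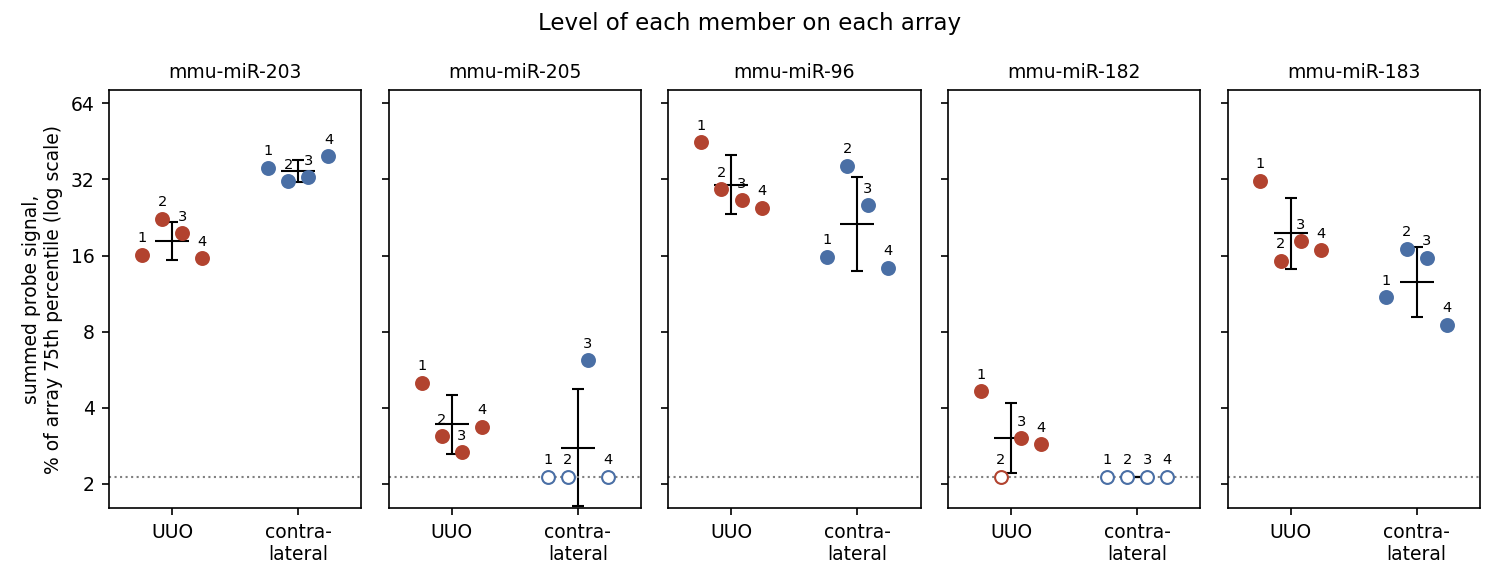
Level of each of the 5 miRNAs on each array, as summed probe signal in percent of the array's 75th percentile (log axis), for UUO and contralateral kidneys numbered as in the labels. Horizontal bars are geometric means with 1 SD of the log2 values; open circles lie at the floor of 2.13% (dotted line), where neither probe was above background. The 4 UUO kidneys of miR-203 lie between 15.6% and 22.4%, below all contralateral kidneys, and the groups of miR-96, miR-183 and miR-205 overlap.

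The miR-183 cluster did not share the lower level of miR-203. mmu-miR-96 was at 45.0%, 29.3%, 26.5% and 24.8% in UUO kidneys 1 to 4, against 15.8%, 36.2%, 25.4% and 14.3% in contralateral kidneys 1 to 4. UUO kidney 1 was the highest of the 8, but contralateral kidney 2 exceeded the other UUO kidneys, so the groups overlapped. The log2 difference was 0.51 with an SE of 0.34, and 0.53 with an SE of 0.38 without UUO kidney 2. The geometric mean was 30.5% in UUO kidneys and 21.3% in contralateral kidneys, which is 1.43-fold. The SD of the log2 values was 0.39 in UUO kidneys and 0.62 in contralateral kidneys (n = 4 each), so the difference was smaller than the spread among contralateral kidneys.

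mmu-miR-183 behaved much as miR-96 did. It was at 31.6%, 15.3%, 18.2% and 16.8% in UUO kidneys 1 to 4, against 10.9%, 17.0%, 15.7% and 8.53% in contralateral kidneys 1 to 4. Again UUO kidney 1 was the highest and contralateral kidneys 1 and 4 were the lowest, and the groups overlapped. Contralateral kidney 2 exceeded UUO kidneys 2 and 4, and contralateral kidney 3 exceeded UUO kidney 2. The log2 difference was 0.64 with an SE of 0.31, and 0.76 with an SE of 0.32 without UUO kidney 2. Its geometric mean of 19.6% in UUO kidneys stood against 12.6% in contralateral kidneys, which is 1.56-fold.

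For miR-96 and miR-183 every probe was above background on all 8 arrays. The probes of miR-183 both gave a difference of 0.64, and those of miR-96 gave 0.41 and 0.58. Within slide row 1 the differences were 0.60 for miR-96 and 0.69 for miR-183, and within row 2 they were 0.43 and 0.60 in the same order. Single kidneys moved these values considerably: without UUO kidney 1 they were 0.33 for miR-96 and 0.41 for miR-183. Without contralateral kidney 4 they were 0.32 and 0.46 in that order.

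The sign for miR-96 and miR-183 turned under the normexp background correction. There the differences were -0.20 for miR-96 and -0.39 for miR-183, with the median of all tested miRNAs at -0.62. Relative to that median miR-96 stood at 0.42 and miR-183 at 0.24, against 0.66 and 0.78 in the scaled signal. Without scaling the differences were 1.40 for miR-96 and 1.52 for miR-183, with the same values relative to the median by construction.

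mmu-miR-182, the third miRNA of the cluster, was near the limit of detection and was not tested. It was above background in 3 of 4 UUO kidneys and in 0 of 4 contralateral kidneys. Its level was 4.63%, 3.02% and 2.86% in UUO kidneys 1, 3 and 4, while UUO kidney 2 and all contralateral kidneys lay at the floor of 2.13%, which has no order. On the 1 probe that detected it, the signal was 4.79%, 1.28%, 3.07% and 2.79% in UUO kidneys 1 to 4, against 1.71%, 1.69%, 2.11% and 1.19% in contralateral kidneys 1 to 4. UUO kidney 2 was thus as low as the contralateral kidneys. The other probe was above background on 0 arrays. The arrays that detected miR-182 were UUO kidneys 1, 3 and 4, whose 75th percentiles were 689, 1403 and 1595 signal units, above those of UUO kidney 2 at 514 and of the contralateral arrays at 417 to 582. The part of array brightness in this detection was not tested. With the floor set 4 times higher no difference in miR-182 could be measured, and after the normexp correction its difference was -0.98.

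mmu-miR-205 was detected in all 4 UUO kidneys and in 1 contralateral kidney, so it entered the test through the UUO group alone. Its level was 5.01%, 3.08%, 2.66% and 3.37% in UUO kidneys 1 to 4. In contralateral kidney 3 it was 6.17%, the highest of the 8, and in contralateral kidneys 1, 2 and 4 it lay at the floor of 2.13%. The groups therefore overlapped through 1 kidney.

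The log2 difference of miR-205 was 0.31 with an SE of 0.39, with 3 contralateral values set to the floor. It was 0.69 without contralateral kidney 3 and 0.12 without UUO kidney 1. The slide rows gave opposite signs, 0.89 in row 1 and -0.27 in row 2, which holds contralateral kidney 3. In unscaled signal miR-205 was at 34.5, 15.9, 37.4 and 53.7 in UUO kidneys, against 4.36, 1.41, 34.1 and 5.71 in contralateral kidneys, so the same kidney stood out before any scaling or floor. After the normexp correction the difference was -0.99, with the median of all tested miRNAs at -0.62. Relative to that median miR-205 stood at -0.37. The detection of miR-205 rested mainly on 1 of its 2 probes, which was above background on 5 arrays, against 1 array for the other.

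The whole-table test gives the background for these differences. Of the 222 miRNAs tested, 30 were lower in UUO kidneys at an adjusted p under 0.05 (limma, Benjamini-Hochberg), which is 13.5%, and 3 were higher, which is 1.35%. Among the 4 tested of the 5 described, 1 was called lower, miR-203, and 0 were called higher by limma, with 0 higher at an unadjusted p under 0.05 as well; miR-205 is among the 4 only through its UUO arrays. By size miR-203 ranked 15th among the 30 that were lower. The groups did not overlap for 1 of the 4 with UUO lower, and for 0 of the 4 with UUO higher, where 1.8% of all tested miRNAs separated. Without UUO kidney 2, limma called 30.2% of miRNAs lower and 20.7% higher, and of the 4 miR-203 was called lower. With each array weighted by how closely it follows its group mean, UUO kidney 2 had a weight of 0.114. With these weights limma called 54 of the 222 miRNAs higher and 84 lower. Among them miR-96 at 0.85 and miR-183 at 1.03 were called higher and miR-203 at -1.04 lower. Since the miRNAs were chosen with this contrast in view, these counts are no evidence about them. The call for miR-203 was met in 10 of 23 other settings, and in 3 of the 8 that leave out 1 kidney. These settings share the same arrays and several leave its difference as it is, so this tally is no evidence either.

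The miR-200 family, the main epithelial family of the kidney and a list chosen with results of these data known, served as a comparison. Of 7 members tested, 2 were lower in UUO kidneys, against 13.5% of all tested miRNAs. They were miR-200a, with a log2 difference of -0.72 and an SE of 0.16, and miR-429, at -0.60 with an SE of 0.14. Both had an adjusted p of 0.0266 (limma). The remaining members of their cluster did not pass, miR-200b at -0.59 (adjusted p = 0.0649), miR-200b* at -0.56 (adjusted p = 0.0785) and miR-200a* at -0.55 (adjusted p = 0.0894). The family median was -0.56, against -0.14 over all miRNAs tested. Without UUO kidney 2 all 5 of these were called lower, against 30.2% of all tested miRNAs. That kidney was set aside by its values on the tested miRNAs, so the rise is no separate support. Leaving out any one of UUO kidneys 1, 3 and 4 or contralateral kidneys 1, 3 and 4 ended every call in the family. Leaving out contralateral kidney 2 left 1.

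The other branch of the family, miR-200c and miR-141, which is transcribed from a separate locus, did not pass in either direction. The log2 difference was 0.15 with an SE of 0.22 for miR-200c (adjusted p = 0.642) and 0.14 with an SE of 0.28 for miR-141 (adjusted p = 0.742). The value of miR-203, -0.93, lay below those of the miR-200b cluster, -0.72 to -0.55, and those of miR-96 and miR-183, 0.51 and 0.64, lay above those of miR-200c and miR-141. The difference between these groups of miRNAs was not tested.

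**Figure D2:**
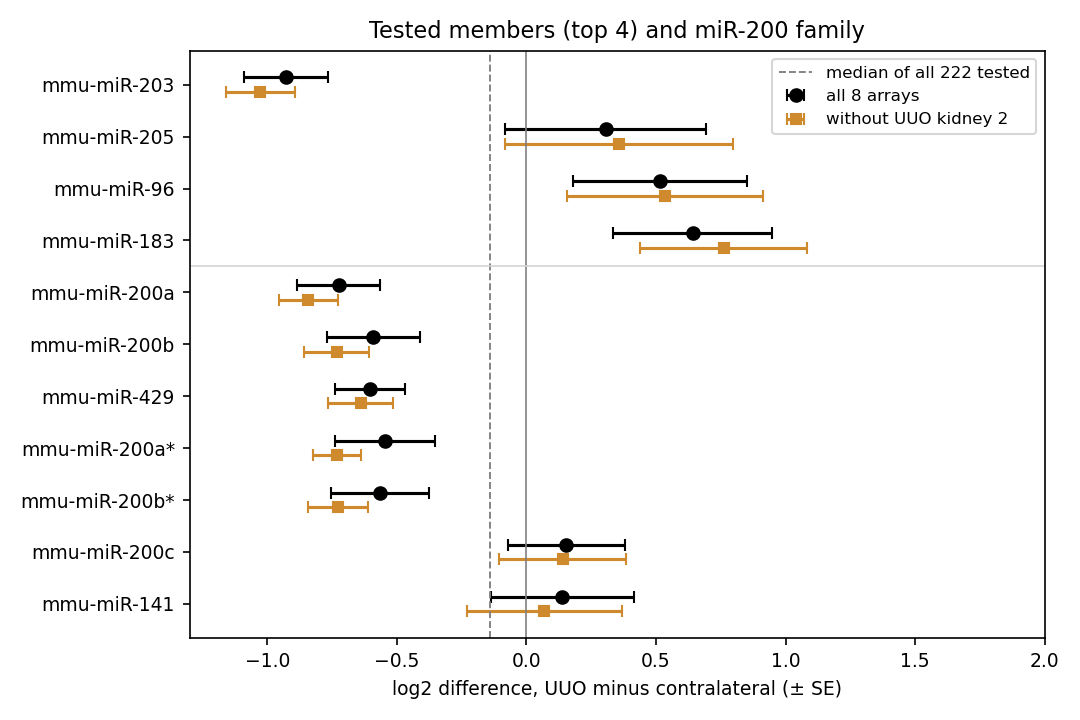
Log2 difference, UUO minus contralateral, with its SE for the 4 tested of the 5 miRNAs (top) and the 7 tested members of the miR-200 family, with all 8 arrays (black) and without UUO kidney 2 (orange). The dashed line is the median of all 222 miRNAs, -0.14; miR-203 lies at -0.93, beside miR-200a at -0.72, and miR-96 and miR-183 lie at 0.51 and 0.64.

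Ratios on the same array remove any constant brightness factor. The log2 ratio of miR-96 over miR-203 was 1.48, 0.38, 0.43 and 0.66 in UUO kidneys 1 to 4, against -1.17, 0.20, -0.36 and -1.47 in contralateral kidneys 1 to 4. The sign of a single ratio has no meaning, since the probes differ, but all UUO kidneys lay above all contralateral kidneys. The mean was 0.74 ± 0.51 in UUO kidneys and -0.70 ± 0.76 in contralateral kidneys (SD, n = 4 each), a difference of 1.44, and of 1.56 without UUO kidney 2.

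miR-183 over miR-203 gave the same separation. This ratio was 0.97, -0.55, -0.10 and 0.10 in UUO kidneys, against -1.71, -0.89, -1.06 and -2.21 in contralateral kidneys, a difference of 1.57. Over 23 other settings the difference ranged from 0.88 to 1.88 for miR-96 over miR-203 and from 0.69 to 2.06 for miR-183 over miR-203. The scaling cancels in these ratios. Of the 221 other tested miRNAs, 79 had a ratio over miR-203 that was higher in all UUO kidneys than in all contralateral kidneys, which is 35.7%, so this separation was shared by many miRNAs.

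Within the cluster the ratio differed little between the groups. The log2 ratio of miR-96 over miR-183 was 0.51, 0.94, 0.54 and 0.56 in UUO kidneys, against 0.53, 1.09, 0.70 and 0.74 in contralateral kidneys. The mean was 0.64 ± 0.20 in UUO kidneys and 0.76 ± 0.23 in contralateral kidneys (SD, n = 4 each), the groups overlapped, and the difference of -0.13 was below either SD. This difference ranged from -0.23 to 0.19 over the other settings. Over all arrays miR-96 over miR-183 had an SD of 0.21, with 0.58 between its lowest and highest value. Such steadiness was not particular to the cluster. For miR-203 over miR-200a, a pair outside the cluster, the SD was 0.18 and the span 0.55. The remaining ratios computed had a larger SD than miR-96 over miR-183.

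**Figure D3:**
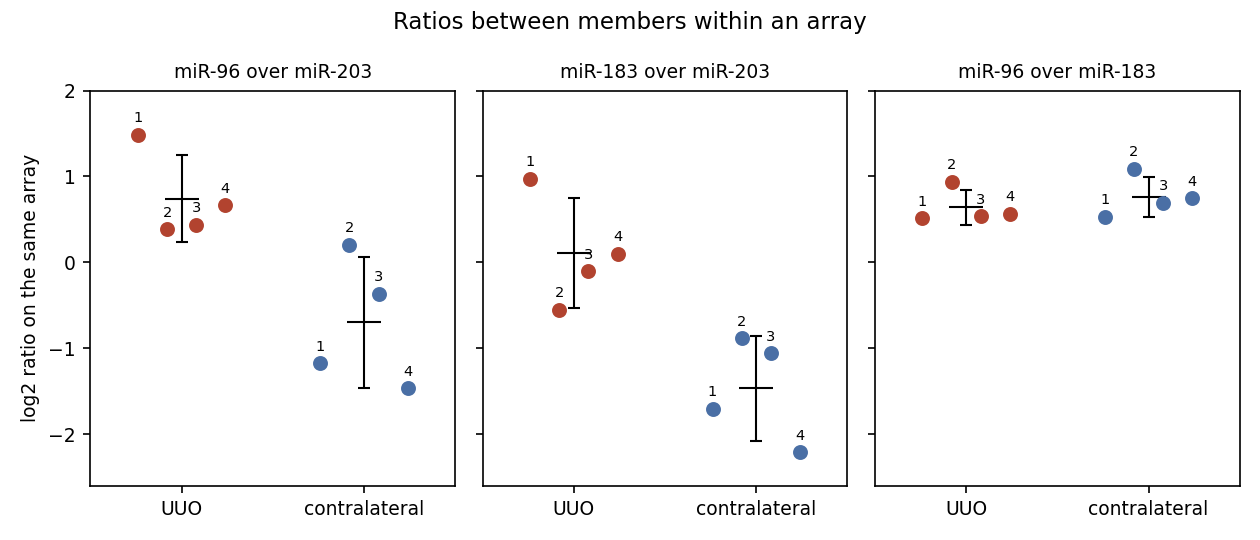
Log2 ratio of 2 miRNAs on the same array for UUO and contralateral kidneys, numbered as in the labels; bars are the mean and 1 SD (n = 4 each). miR-96 and miR-183 over miR-203 are higher in all UUO kidneys, and miR-96 over miR-183 stays between 0.51 and 1.09 on all 8 arrays.

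miR-96 and miR-183 had similar profiles over the 8 arrays. Likeness to another miRNA was measured as the root mean square difference of log2 values over the 8 arrays, each miRNA centred on its own mean, and it is a description in which the arrays share their brightness and slide. The value between miR-96 and miR-183 was 0.199. Among the 218 tested miRNAs outside the 5, the median value was 0.683 to miR-96 and 0.695 to miR-183. The nearest to miR-96 were miR-19a at 0.208, miR-141 at 0.268 and miR-301a at 0.302. The nearest to miR-183 were miR-19a at 0.208, miR-19b at 0.277 and miR-17* at 0.292. miR-19a, miR-19b and miR-17* belong to the miR-17-92 cluster, whose host gene is known for promoting proliferation.

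The contralateral kidneys showed the shared pattern most plainly. miR-96, miR-183, miR-141 and miR-200c were each higher in contralateral kidneys 2 and 3 than in 1 and 4, although miR-200c was not among the 3 nearest to miR-96 or miR-183. miR-141 was at 46.1% and 40.2% in contralateral kidneys 2 and 3, against 28.0% and 20.6% in 1 and 4. For miR-203 the order was turned, with contralateral kidneys 1 and 4 the higher pair. In UUO kidneys, miR-96, miR-183, miR-141 and miR-200c were each highest in kidney 1. Among UUO kidneys 2, 3 and 4 the orders of miR-96 and miR-183 differed, kidney 2 being the highest of these for miR-96 and the lowest for miR-183.

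The nearest miRNAs to miR-203 were miR-107 at 0.0751, miR-29c at 0.108 and let-7g at 0.166, against a median of 0.613 over the 218 miRNAs. All of these were lower in UUO kidneys, which follows from the measure. Centring leaves the difference between groups in each profile, so miRNAs near miR-203 have a similar difference by construction. miR-29c is known for targeting collagen messenger RNAs, and let-7g is one of the let-7 miRNAs that oppose growth programmes. Their own log2 differences were -0.96 with an SE of 0.18 for miR-107 (adjusted p = 0.0172, limma), -1.09 with an SE of 0.17 for miR-29c (adjusted p = 0.0172) and -0.67 with an SE of 0.15 for let-7g (adjusted p = 0.0266). From miR-203 to miR-96 and miR-183 the values were 0.913 and 0.953, above that median, and their opposite group differences enter these values by construction.

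**Figure D4:**
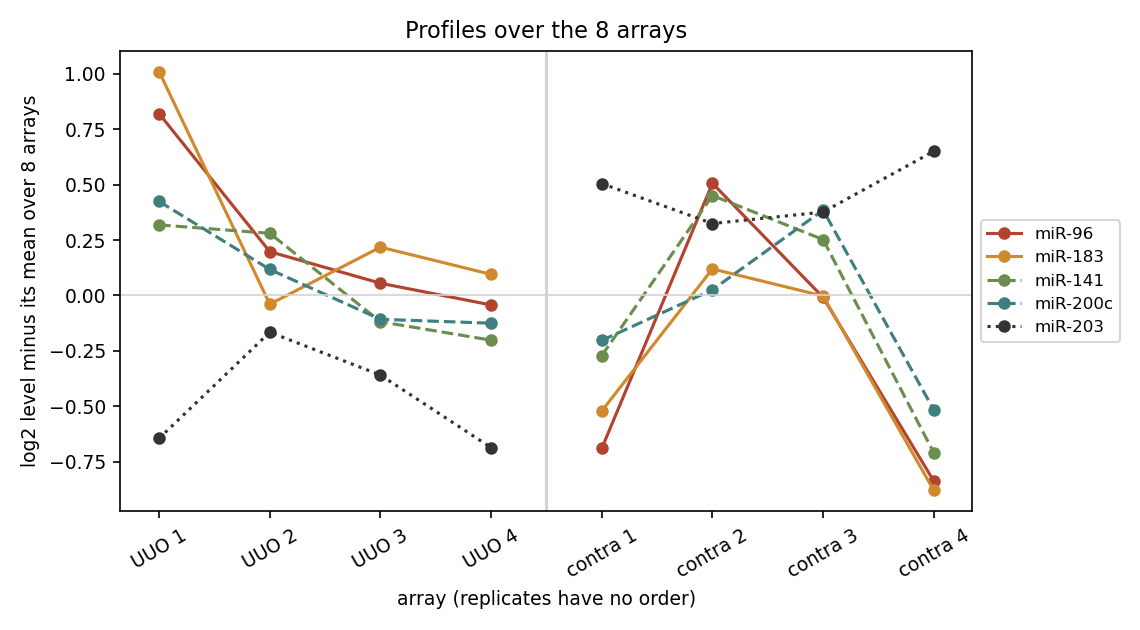
Log2 level of miR-96, miR-183, miR-141, miR-200c and miR-203 on each array, each minus its own mean over the 8 arrays; lines join the points of 1 miRNA and imply no order of kidneys. miR-96 and miR-183 have similar profiles, with values from 0.82 and 1.01 in UUO kidney 1 to -0.84 and -0.88 in contralateral kidney 4. They lie furthest apart in contralateral kidney 2, at 0.51 and 0.12, and next furthest in UUO kidney 2, at 0.20 and -0.04. miR-203 lies below 0 in all UUO kidneys.

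The opposite strands of the precursors gave no signal. Of the 5 star strands, 2 were found on the array under their names, miR-203* and miR-183*, and both were above background on 0 of 8 arrays.

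Markers of other cells are given beside these results. Of 5 tested leukocyte miRNAs 0 were called with all 8 arrays and 5 were called higher without UUO kidney 2, where 20.7% of all tested miRNAs were called higher. The summed level of the list was 1.88 to 7.69 times the 75th percentile in UUO kidneys, kidney 2 being the lowest, against 1.99 to 2.71 in contralateral kidneys. The neutrophil and myeloid miRNA miR-223 differed by 1.45 (adjusted p = 0.0837, limma), and the inflammation-induced miR-146a by 0.67 (adjusted p = 0.149). Of 4 tested mesenchymal miRNAs 0 were called, and 3 were called higher without UUO kidney 2, against the same 20.7%, with sums of 3.44 to 14.5 in UUO kidneys and 4.31 to 5.60 in contralateral kidneys. miR-199a-3p differed by 1.05 (adjusted p = 0.155) and miR-143 by 0.10 (adjusted p = 0.770).

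Of 5 tested tubule miRNAs 2 were lower, miR-192 and miR-194, against 13.5% of all tested miRNAs, and 3 were lower without UUO kidney 2, against 30.2%. The list had sums of 17.8 to 22.6 in UUO kidneys and 28.5 to 33.0 in contralateral kidneys. miR-192 differed by -1.27 (adjusted p = 0.0213, limma), and miR-10a by 0.00 (adjusted p = 0.980). Of 2 endothelial miRNAs 1 was lower, with and without UUO kidney 2, against the same 13.5% and 30.2%. This was miR-126-5p at -0.81 (adjusted p = 0.0266), while miR-126-3p was at -0.30 (adjusted p = 0.201). The sums were 9.57 to 13.2 in UUO kidneys and 12.1 to 15.2 in contralateral kidneys. The part of these cell types in the differences of miR-203 and the miR-183 cluster was not tested.

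The lists closest to the known homes of the miRNAs described were small. The urothelial and stratified epithelial list holds miR-203, miR-205, miR-200c and miR-141, and its sum was 1.58 to 2.23 in UUO kidneys and 1.46 to 2.35 in contralateral kidneys. Most of that sum was miR-200c, at 110% to 160% of the 75th percentile in UUO kidneys and 83.6% to 156% in contralateral kidneys. Of the 4 tested, 1 was called lower, miR-203, against 13.5% of all tested miRNAs. As miR-203 is one of the miRNAs described, this call is no evidence about it. Of the neural and neurosensory list, miR-124 was above background on 0 arrays, and of 3 tested 0 were called by limma, also without UUO kidney 2. miR-7a differed by -0.31 (adjusted p = 0.257) and miR-128 by -0.27 (adjusted p = 0.230). The sums of that list were 0.257 to 0.353 in UUO kidneys and 0.354 to 0.402 in contralateral kidneys.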

How the data were processed

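Scanner intensities of 8 one-colour arrays were used as deposited. Per the file headers they were extracted with Agilent Feature Extraction 10.7.3.1, while the submitters' processing notes name version 10.1.1; per the labels' protocols 100 ng of total RNA was labelled with Cy3. The background-subtracted processed intensity of each spot was taken from the deposited files, in which 2.34% to 3.52% of spots were left out as outliers and 0 were saturated. The deposited series values equalled these processed intensities, unscaled.

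Spots were averaged per probe (1759 mouse probes). A probe was above background when over 50% of its spots were marked so by the scanner software. For scaling, each array was divided by the 75th percentile over those 371 probes that passed this mark on every array, probes of a miRNA were summed, values under 0.0213 (the floor) were set to it, and log2 was taken. limma 3.58.1 (R 4.3.3) was fitted to 222 miRNAs, without a block, with Benjamini-Hochberg adjustment at 0.05; other values were computed with Python 3.11.15, pandas 2.3.3, numpy 2.4.6 and scipy 1.17.1, and figures with matplotlib 3.10.9. The fit was tested on simulated data. The number of arrays limits the precision.

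The alternatives were other scalings (none, all mouse probes, quantile), normexp with an offset of 50, the scanner software's summed signal, the deposited series values, the mean of log2 probe values, other filters and floors, array weights, the slide row and the replicate number as blocks, each slide row alone, and each kidney left out. Same-numbered kidneys deviated together with r of -0.35, 0.22, 0.62 and 0.01, and differently numbered ones with r of -0.60 to 0.57. This cannot settle whether the numbers pair samples, and they were not taken to do so.

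The miRNAs described, the marker lists and the comparison lists were chosen with earlier results of these data known. The text names the 5 miRNAs, their opposite strands, the tested miR-200 family, the 3 nearest miRNAs to each of the 5 that was above background on all arrays, and the 2 of highest signal of each marker list; miR-194, miR-204, miR-10b, miR-215 and miR-124 are named besides, after their values were seen. Within-array ratios, single probes and the order of kidneys within a group were added after seeing the data.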

Additional observations from a re-analysis of the deposited data

Results flagged for a closer look

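In 4 of 24 groups of 4 kidneys, one kidney stood apart from the others by the gap to its nearest neighbour over the range of the group (Dixon's test). Chance alone flags about 1 in 20 such groups, but these groups share arrays and related miRNAs, so the count cannot be judged against that rate. For mmu-miR-205, contralateral kidney 3 had a log2 level of -4.02, with the other contralateral kidneys all at the floor of -5.56. There the gap equals the range because the others share the floor, so the rate of 1 in 20 does not apply to this group. mmu-miR-200a* was -2.80 in UUO kidney 2, with the other UUO kidneys at -3.56 to -3.52. mmu-miR-200b* was -2.56 in UUO kidney 2, with the others at -3.25 to -3.15. For mmu-miR-429, UUO kidney 4 had a log2 level of 1.58, with the other UUO kidneys at 1.87 to 1.93, a gap of 0.830 of the range.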

How the results depend on the processing

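The differences of the 5 miRNAs, on the log2 scale, moved by more than the spread between kidneys under few settings, but several settings could not move them. The other filters and both blocks leave these values as they are, and the deposited series values repeat the unscaled signal. Without scaling, and with the deposited series values, miR-203 was at -0.046, miR-96 at 1.40, miR-183 at 1.52 and miR-182 at 1.30. After normexp miR-205 was at -0.99, miR-96 at -0.20, miR-183 at -0.39 and miR-182 at -0.98, with the median of all tested miRNAs at -0.62. With a floor 4 times higher miR-182 was at 0.00. Leaving out 1 kidney at a time gave -1.03 to -0.85 for miR-203, 0.12 to 0.69 for miR-205, 0.32 to 0.77 for miR-96, 0.31 to 0.69 for miR-182 and 0.41 to 0.79 for miR-183.

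The whole-table counts, 3 higher and 30 lower, changed with most settings. They were 0 and 0 after normexp and with scaling over all probes, 1 and 1 with quantile normalization, and 0 and 17 without the filter. The higher count was 1 with miRNAs above background on all 8 arrays or with the higher floor, and the lower count was 0 without scaling or with the series values and 1 with the software's summed signal. They were 0 and 0 within slide row 1, 20 and 49 within row 2, and 54 and 84 with array weights, which gave UUO kidney 2 a weight of 0.114. The labels do not say whether the replicate numbers pair kidneys. With the replicate number as a block, the counts were 0 and 0, with 67 miRNAs at an unadjusted p under 0.05 by limma. At that p, without adjustment, there were 81 in the scaled signal with no block, 54 after normexp, 56 with scaling over all probes, 64 without scaling, 63 with quantile, 68 with the summed signal and 1 within row 1. Leaving out 1 kidney gave 0 to 46 higher and 0 to 67 lower, both highest without UUO kidney 2.

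Of the miR-200 family, 2 were lower, against 0 after normexp, without scaling, with the series values, with scaling over all probes, with quantile, with the summed signal, with the replicate block and within row 1, 1 without the filter, 4 within row 2, 5 with array weights and 0 to 5 with 1 kidney left out. The difference in detected miRNAs per array, 40.25, was 27.8 to 50.2 with 1 kidney left out (exact permutation p of 0.0286 to 0.114), and passed no more without any one of the contralateral kidneys. The cause of these changes was not tested. Signal over background limits miR-182 and miR-205, which lay near the floor.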
